A study of Mus musculus with 12 samples.

Results

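The genes described here encode the machinery of mitosis: the cyclin and kinase engine that starts it, the kinetochores and spindle that move the chromosomes, the ubiquitin ligase partners that end it, and the proteins that cut the cell apart. The list names 40 such genes. Each was measured by the probe set annotated to it alone that had the highest mean signal. A probe set of this kind was used for 39 of the 40, and all 39 passed the filter on low signals. Ccnb1 was not analysed here. In all, 12429 genes were tested.

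The samples were 12 cultures of dendritic cells grown from the marrow of mice aged 6 to 8 weeks, 1 Affymetrix array per culture. Every culture received GM-CSF at 20 ng/ml, the growth factor that turns marrow precursors into dendritic cells, over 10 days. The 6 conditions were no retinoid, all-trans-retinoic acid (RA, 10 nmol as labelled), which activates retinoic acid receptors, and Ro41-5253 (Ro, 100 nmol as labelled), an antagonist of the alpha receptor, each without LPS and with LPS (1 ug/ml). LPS is a bacterial cell wall component that makes dendritic cells mature. Both retinoids were present throughout the culture, and the duration of LPS exposure was not given separately. Every condition was run once in BALB/c and once in BL6 mice, so each condition has 2 arrays and each strain 6. The labels do not say whether cultures of a strain came from separate animals.

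Values are array signals on a linear scale. Array medians ran from 21.4 to 41.8, and a mean signal under 41.8 is called background here. Changes are differences of log2(signal + 16) in a limma model with strain as a block, given with their standard error and relative to the median change of all tested genes. LPS moved that median by -0.41 and Ro by 0.23. The adjusted p (Benjamini-Hochberg over all genes, threshold 0.05) tests the change at the deposited scaling. The dendritic cell label was checked on 10 markers: the antigen presentation genes Cd74, H2-Aa and H2-Ab1 lay between 7047 and 14384 on all 12 arrays, and the integrin gene Itgax between 1013 and 6159. Others were low in places: Flt3 did not exceed 101 on any array, Zbtb46 ran from 26.2 to 501, and Cd209a and Clec10a lay at or near background with LPS (15.4 to 36.8 and 16.2 to 79.1). Defining T cell and erythroid genes lay at or near background (highest signals 52.4 and 45.6). Some macrophage and granulocyte genes were bright without LPS, such as Csf1r at 9236 to 10905 and S100a8 at 3565 to 13426. Others were not, such as Marco at 1.44 to 237. The cultures may therefore hold other marrow cells.

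Cells divide under the control of cyclin-dependent kinase 1 with its cyclins A and B. Genes of this phase are switched on together late in the cell cycle by FOXM1, B-MYB and the MuvB complex, and are repressed in resting cells by the DREAM complex. MuvB binds a promoter element called CHR, with the core TTTGAA, and the factor NF-Y binds CCAAT boxes nearby. In marrow cultures with GM-CSF, precursors divide before they differentiate, and mature dendritic cells have stopped dividing.

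Promoter stretches of 8 members are shown because the values below turn on these genes and because their motif content differs. Each runs from 150 bases before to 25 bases from the annotated start, 5′ to 3′ on the gene's strand, from RefSeq on build GRCm38.p6. Capitals mark TTTGAA and CCAAT, or TTCAAA and ATTGG where the motif lies on the other strand. Ccnb2 (chr9:70421530-70421704, minus strand), Cdk1 (chr10:69352888-69353062, minus strand), Ube2c (chr2:164769779-164769953, plus strand) and Top2a (chr11:99024165-99024339, minus strand) hold both motifs. Cenpa (chr5:30666736-30666910, plus strand) and Mki67 (chr7:135716355-135716529, minus strand) hold both as well. Birc5 (chr11:117849087-117849261, plus strand) and Pttg1 (chr11:43425957-43426131, minus strand) hold neither in these letters.
Ccnb2: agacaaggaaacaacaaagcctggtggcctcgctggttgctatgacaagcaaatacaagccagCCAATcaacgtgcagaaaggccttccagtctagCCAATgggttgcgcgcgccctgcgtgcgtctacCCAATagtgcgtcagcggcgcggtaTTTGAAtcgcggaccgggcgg
Cdk1: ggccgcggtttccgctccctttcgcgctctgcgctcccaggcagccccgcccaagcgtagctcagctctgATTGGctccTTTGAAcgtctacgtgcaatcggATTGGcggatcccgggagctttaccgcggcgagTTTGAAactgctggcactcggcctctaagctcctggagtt
Ube2c: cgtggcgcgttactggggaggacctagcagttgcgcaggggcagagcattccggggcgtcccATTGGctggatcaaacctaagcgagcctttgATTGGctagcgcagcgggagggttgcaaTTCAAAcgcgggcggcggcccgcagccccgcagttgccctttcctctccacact
Top2a: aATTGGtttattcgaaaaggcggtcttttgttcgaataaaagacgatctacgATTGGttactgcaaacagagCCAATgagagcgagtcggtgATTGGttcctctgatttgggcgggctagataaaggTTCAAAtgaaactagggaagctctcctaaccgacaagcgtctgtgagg
Birc5: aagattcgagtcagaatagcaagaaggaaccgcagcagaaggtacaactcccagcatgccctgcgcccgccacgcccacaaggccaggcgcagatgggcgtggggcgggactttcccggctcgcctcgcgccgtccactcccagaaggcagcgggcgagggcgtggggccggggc
Cenpa: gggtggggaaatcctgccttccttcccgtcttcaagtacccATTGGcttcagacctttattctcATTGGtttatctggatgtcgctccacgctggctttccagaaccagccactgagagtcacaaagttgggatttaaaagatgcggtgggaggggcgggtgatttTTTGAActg
Mki67: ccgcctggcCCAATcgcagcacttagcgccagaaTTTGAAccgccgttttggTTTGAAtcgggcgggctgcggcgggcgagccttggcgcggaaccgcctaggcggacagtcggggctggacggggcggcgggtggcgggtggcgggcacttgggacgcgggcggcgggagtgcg
Pttg1: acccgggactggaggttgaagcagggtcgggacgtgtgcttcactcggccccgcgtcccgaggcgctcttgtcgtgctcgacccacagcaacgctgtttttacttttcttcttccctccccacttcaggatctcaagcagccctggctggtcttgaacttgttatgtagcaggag

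In the full windows, from 250 bases before to 50 bases after the start, 33 of the 40 listed genes had an entry. TTTGAA was found on either strand in 24 of these 33 (72.7%), against 20.2% of 27025 genes with such a window. CCAAT was found in 25 of 33 (75.8%), against 41.1% of all. Both occurred in 21 of 33 (63.6%), against 7.97%. These 2 motifs share no overlapping letters as searched. A match describes the letters in the window and no measured binding. The LPS change described next had a median of -2.72 in the 24 measured members with TTTGAA and -2.68 in the 8 without (Birc5, Nuf2, Nusap1, Cenpe, Nek2, Mad2l1, Bub1 and Pttg1).

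The first comparison asked how mitosis genes differed between cultures with LPS and without it, over the 3 retinoid settings (6 arrays against 6). LPS lowered 38 of the 39 measured members and raised none, where 47.9% of all genes were lower. After quantile normalization 36 were lower, beside 28.8% of all genes. The median change of the members was -2.68, and that of all genes is 0 by construction. In 34 members every LPS array lay below every array without LPS, as it did for 19.3% of all genes. Of all genes called, 18.7% were higher with LPS at the deposited scaling and 45.8% after quantile normalization, while no member was higher under either. Of the 39, 11 passed the filter through the arrays without LPS alone, so that they had to fall if they differed. These were Cdc25c, Nek2, Cenpf, Nuf2, Ttk, Kif11, Kif2c, Kif4, Kif20a, Anln and Ect2. The counts by role below include them. Of the other 28, 27 were lower at the threshold. The LPS mean of 23 members lay at background. For these no exact fold is given, only a bound, which holds for the probe set used. The bound counts each LPS array at its own signal or at its array median, whichever is higher. It makes no correction for the shift of the median gene. The size and order of a log2 change against such a mean depend on the added 16, here and for the other gene lists. Arrays measure a bulk of cells, so fewer dividing cells and less of these RNAs per cell cannot be told apart.

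**Figure D1:**
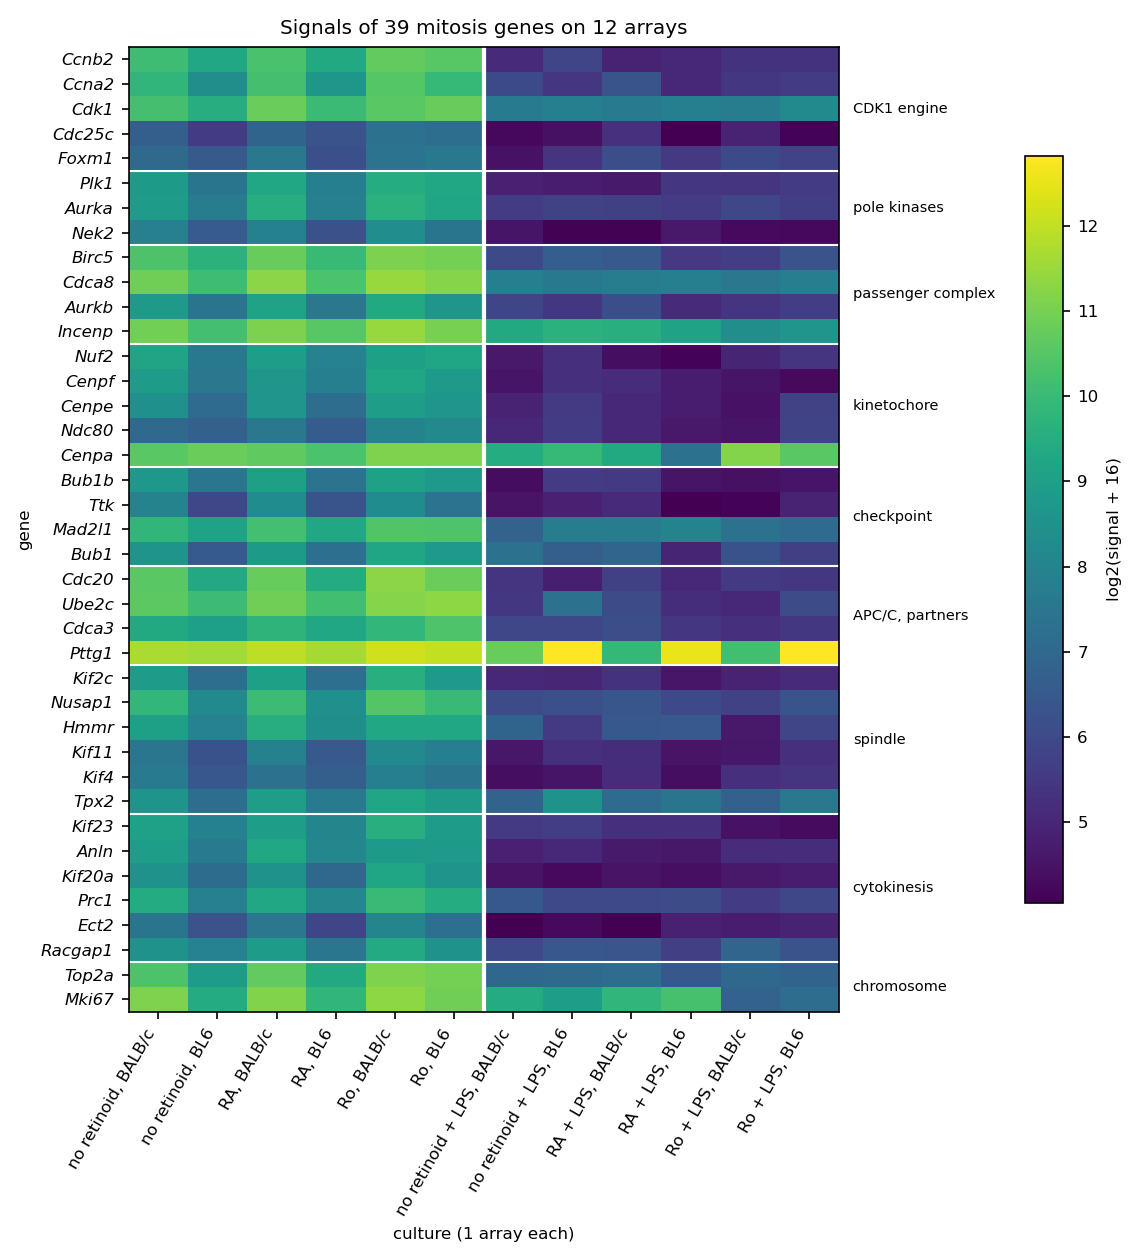
Signals of the 39 measured mitosis genes (rows, grouped by role) on the 12 arrays (columns), as log2(signal + 16). The 6 LPS columns on the right are dark for most rows, with Pttg1, Cenpa, Incenp and Mki67 among the exceptions, and among the columns without LPS those of BL6 with no retinoid or RA are dimmer than the rest.

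All 5 measured genes of the CDK1 engine were lower with LPS, with changes of -4.38 to -1.07. This count and those of the other roles stand beside 47.9% of all genes lower (28.8% after quantile normalization). Ccnb2 encodes cyclin B2, a partner of CDK1. Its signals ran from 614 to 1661 without LPS (median 1171) and from 14.3 to 42.4 with it (median 21.5). The groups lay far apart, and Ccnb2 fell by 4.38 ± 0.24 (adjusted p = 7.8e-08), at least 38.8-fold. Ccna2, cyclin A2, went from 315 to 1442 (median 930) down to 17.4 to 63.7 (median 30.2), at least 21.5-fold lower. Cdk1, the kinase itself, kept the highest LPS signals of the engine: 724 to 1800 without LPS (median 1355) against 181 to 283 with it (median 207). Its groups did not overlap either, and the relative difference was 4.29-fold (-2.10 ± 0.20, adjusted p = 1.2e-06). Cdc25c, the phosphatase that activates CDK1, was a dim gene at 31.7 to 146 without LPS and was at least 3.48-fold lower with it. Foxm1, the transcription factor of this programme, ran from 57.1 to 171 (median 136) without LPS and from 6.43 to 56.1 (median 35.4) with it. Foxm1 was at least 3.26-fold lower (-1.07 ± 0.26, adjusted p = 0.000434).

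The kinases that act at the spindle poles fell together, 3 of 3, with changes of -3.18 to -2.68. Plk1, which drives entry into mitosis and centrosome maturation, ran from 162 to 703 (median 522) without LPS and from 9.60 to 32.8 (median 18.9) with it, at least 15.8-fold lower. Aurka, the Aurora kinase of the poles, ran from 198 to 787 (median 520) against 31.5 to 44.2 (median 35.9), at least 11.9-fold lower. Nek2, which separates centrosomes, lay under 9 on all 6 LPS arrays.

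In the chromosomal passenger complex, which corrects faulty attachments and later guides cytokinesis, 4 of 4 genes fell, with changes of -3.98 to -1.36. Birc5, or survivin, ran from 819 to 2170 (median 1538) without LPS and from 29.4 to 86.1 (median 55.6) with it. With no overlap, its relative difference was 15.7-fold (-3.98 ± 0.28, adjusted p = 3.2e-07). Incenp, the scaffold of the same complex, fell far less. Its signals were 1173 to 2803 (median 2028) without LPS and 315 to 791 (median 596) with it, a relative 2.56-fold difference (-1.36 ± 0.26, adjusted p = 9.7e-05). The enzyme of the complex, Aurkb, was at least 9.92-fold lower, and Cdca8, or borealin, fell by 2.75 ± 0.20 with LPS signals still at 169 to 213.

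Genes of the centromere and kinetochore, the structure that ties chromosomes to microtubules, were all measured. All 5 were called lower, with changes of -3.46 to -0.73. Nuf2, part of the microtubule-binding NDC80 complex, ran from 175 to 580 (median 500.1) without LPS and from 1.69 to 24.8 (median 11.9) with it, at least 16-fold lower. Its partner Ndc80 was at least 5.34-fold lower, the motor Cenpe at least 10.2-fold and the kinetochore protein Cenpf at least 14.3-fold. Cenpa, the histone H3 variant that marks centromeres, overlapped between the groups. It ran from 1297 to 2249 (median 1720.1) without LPS and from 144 to 2341 (median 829.8) with it, and the highest of the 12 values was the Ro culture of BALB/c with LPS. The fall of Cenpa (-0.73 ± 0.34, adjusted p = 0.0127) was lost after quantile normalization (adjusted p = 0.0608), after median scaling (0.199), in BALB/c alone (0.0611) and with its other probe set (0.876).

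All 4 genes of the spindle checkpoint, which holds anaphase back until chromosomes are attached, fell, with changes of -3.16 to -1.48. Bub1b, or BubR1, ran from 154 to 517 (median 412) without LPS against 4.31 to 33.3 (median 7.42) with it, at least 12-fold lower. Mad2l1, the MAD2 inhibitor of anaphase, stayed above background at 95.0 to 235 with LPS (median 171), against 531 to 1369 without (median 1027), a relative 4.04-fold difference. The checkpoint kinase Ttk was at least 6.07-fold lower. Bub1, a kinase that recruits the checkpoint proteins, overlapped between groups at 76.4 to 587 without LPS (median 393) and 15.2 to 144 with it (median 74.2), and fell by 1.48 ± 0.37 (adjusted p = 0.000914).

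The anaphase-promoting complex and its partners held Cdc20 and Ube2c, which fell steeply, and the 1 member that was not called. Cdc20 activates the complex in mitosis. The probe set used ran from 633 to 2528 (median 1642) without LPS and from 11.3 to 36.5 (median 27.1) with it, and all 6 LPS arrays were at background. On this probe set Cdc20 fell by 4.65 ± 0.20 (adjusted p = 1.8e-08), at least 47.9-fold. Another Cdc20 probe set stayed above background, at 380 to 1585 without LPS and 44.1 to 76.0 with it. It differed by -3.45 at the deposited scaling, so the bound does not hold for it. Over the alternatives run the change of Cdc20 ranged from -5.27 to -3.03. Ube2c, the ubiquitin-conjugating enzyme of the complex, ran from 1061 to 2594 (median 1749) against 16.8 to 144 (median 38.99), a relative 22.2-fold difference. Cdca3, a trigger of mitotic entry, was at least 21.7-fold lower. Pttg1, or securin, which the complex destroys to release sister chromatids, kept high signals: 3083 to 4675 without LPS (median 3652) and 939 to 7260 with it (median 3936). The LPS groups of Pttg1 split by strain, as described below, and its averaged change was 0.07 ± 0.41 (adjusted p = 0.495).

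Of the spindle motors and microtubule proteins 6 of 6 were called lower, with changes of -3.05 to -0.62. Kif2c, a kinesin that takes microtubules apart, ran from 132 to 759 (median 438) without LPS against 8.11 to 24.1 (median 16.5) with it, at least 13.8-fold lower. Another Kif2c probe set stayed above background with LPS, at 43.2 to 69.4, against 29.7 to 202 without. It differed by -0.66 at the deposited scaling (-1.42 in BALB/c and 0.10 in BL6), so the bound does not hold for it. The remaining Kif2c probe sets differed by -2.24 and -0.95. Nusap1, which bundles spindle microtubules, ran from 280.3 to 1397 (median 953) against 37.3 to 68.2 (median 54.1), a relative 7.86-fold difference. Kif11, the motor that pushes the poles apart, was at least 6.16-fold lower, Kif4 at least 5.60-fold, and Hmmr, a spindle assembly factor, fell by 2.53 ± 0.37. Tpx2, the activator of Aurora A on the spindle, went from 367 to 98.5 with LPS in BALB/c without retinoid, and from 132 to 360.3 in BL6. Its groups overlapped at 132 to 590.0 (median 405) against 91.3 to 360.3 (median 140.3), and its fall of -0.62 ± 0.39 had an adjusted p of 0.0389, which 13 of 24 alternatives lost, among them leaving out any 1 BALB/c array or the BL6 array with Ro, with RA and LPS or with Ro and LPS. The interaction of strain with LPS for Tpx2 was -1.72 ± 0.57 and did not pass (adjusted p = 0.278). The other Tpx2 probe sets did not go the same way in BL6. At the deposited scaling the brightest of them was lower with LPS in both strains (-2.50 in BALB/c and -1.43 in BL6). The remaining ones differed by -0.46 and -0.83 in BALB/c and by 0.16 and 0.21 in BL6.

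Genes of the central spindle and cytokinesis fell in 6 of 6 cases, with changes of -3.26 to -1.77. Kif23, a kinesin of the centralspindlin complex, ran from 222 to 729 (median 468) without LPS against 3.82 to 33.9 (median 21.5) with it, at least 15.2-fold lower. Prc1, which crosslinks midzone microtubules, ran from 219 to 986 (median 638) against 32.0 to 71.9 (median 47.4), a relative 6.10-fold difference. Anln, the actin-binding anillin of the cleavage furrow, was at least 15.4-fold lower, and Kif20a, a kinesin of the midzone, at least 11.4-fold. Of the genes that set RhoA activity at the furrow, Racgap1 fell by 1.77 ± 0.21 and Ect2 was at least 4.86-fold lower.

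Of the 2 chromosome proteins, Top2a, the topoisomerase that untangles sister chromatids, ran from 448 to 2211 (median 1502) without LPS against 72.1 to 129 (median 111) with it, a relative 7.51-fold difference. Mki67, which encodes the Ki-67 protein of the chromosome surface, fell by 1.48 ± 0.53 (adjusted p = 0.0079) with overlapping groups, 687 to 2558 (median 2095) against 95.8 to 1226 (median 580). Without LPS the Mki67 signals were 2240 in BALB/c and 687 in BL6 with no retinoid, 2261 and 894 with RA, and 2558 and 1949 with Ro. With LPS they were 675 and 484 with no retinoid, 883 and 1226 with RA, and 95.8 and 130.0 with Ro. Only the 2 Ro cultures with LPS were below 400, and in BL6 alone the LPS change of Mki67 did not pass (adjusted p = 0.187).

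**Figure D2:**
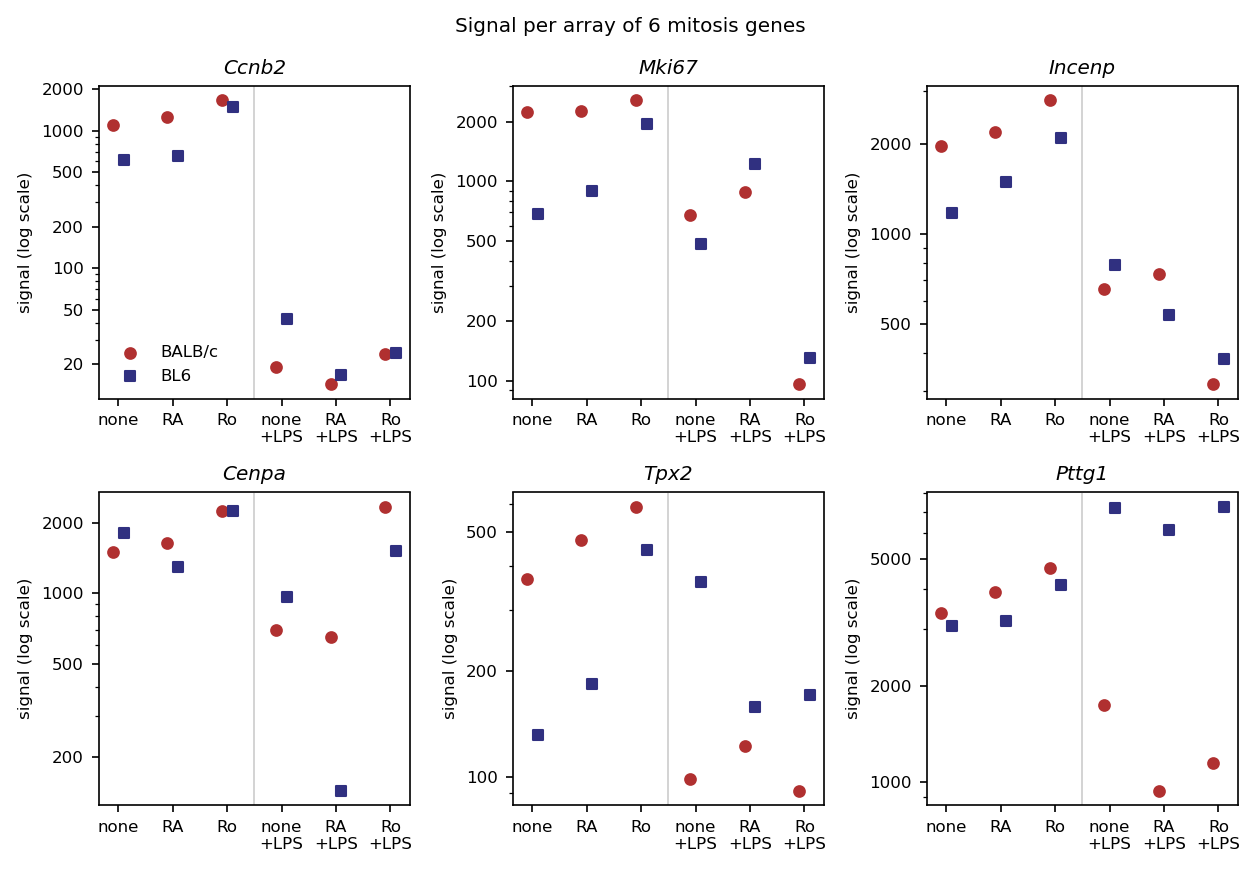
Signal of 6 mitosis genes on each of the 12 arrays (log axis, circles BALB/c, squares BL6, 1 culture each). Ccnb2 fell with LPS in every pair, Mki67 and Incenp were lowest with Ro and LPS, Cenpa reached 2341 in a Ro culture with LPS, and Pttg1 split by strain with LPS.

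Set out by retinoid (2 arrays against 2), LPS lowered 34 members without retinoid (37.7% of all genes were lower), 35 with RA (28.6%) and 37 with Ro (24%). The median change of the members was -2.08, -2.32 and -3.35 in that order. Bub1, Cenpa, Mki67, Tpx2 and Pttg1 were not called without retinoid, Foxm1, Mki67, Tpx2 and Pttg1 were not called with RA, and Cenpa and Pttg1 were not called with Ro. Mki67 changed by -0.57 ± 0.46 without retinoid, by -0.04 ± 0.46 with RA and by -3.79 ± 0.46 with Ro. Incenp changed by -0.54 ± 0.28, -1.10 ± 0.28 and -2.40 ± 0.28. The count without retinoid fell to 26 without the BALB/c control array and to 29 without the BALB/c control with LPS, the count with RA ranged from 29 to 36 when 1 array was left out, and the count with Ro from 35 to 37.

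The difference between these LPS responses was tested as an interaction. For Ro with LPS no member passed in limma (0.644% of all genes did), with 12 members at an unadjusted p under 0.05, beside 1919 of the 12429 genes. Mki67 (-3.18 ± 0.65, adjusted p = 0.0642) and Incenp (-1.83 ± 0.39, adjusted p = 0.0859) came closest. After quantile normalization 3 members passed (1.42% of all genes did) and after median scaling 4. For RA with LPS no member passed (0% of all genes), and 1 member had an unadjusted p under 0.05, beside 707 of all genes. That member was Bub1 (-1.71 ± 0.60, adjusted p = 0.829), ahead of Cenpa (-1.30 ± 0.67, adjusted p = 0.914).

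**Figure D3:**
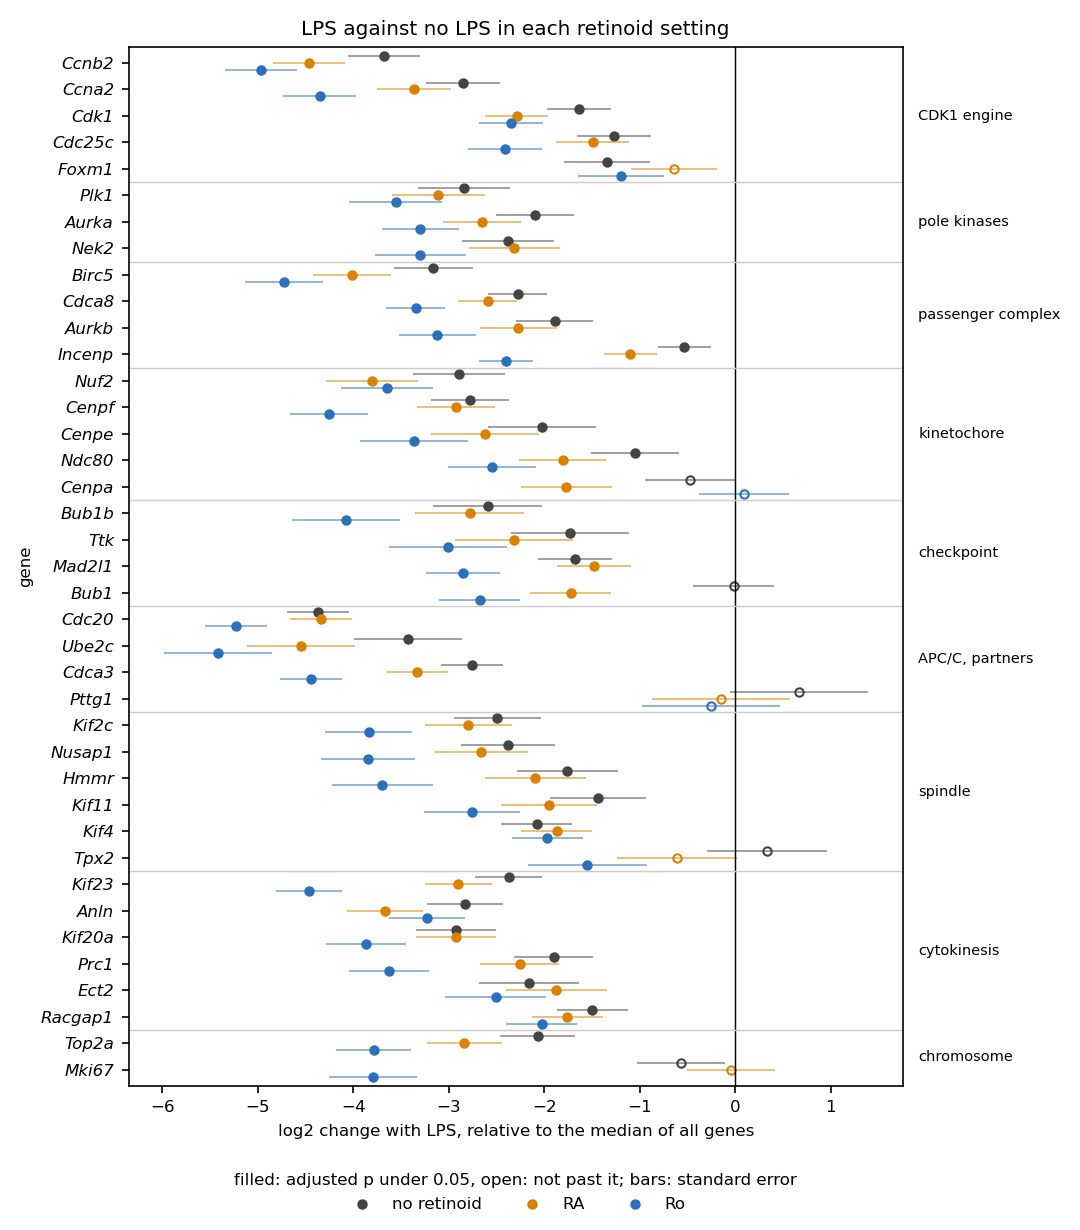
Log2 change with LPS of each mitosis gene without retinoid, with RA and with Ro (2 arrays against 2), relative to the median of all genes, with standard errors. Filled points passed the adjusted threshold, and the Ro points lie leftmost for most genes. Without LPS the mean over the members was also highest with Ro in each strain.

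Ro was compared with no retinoid to ask what blocking the receptor did to these genes. Over both LPS states (4 arrays against 4), only Cdc20 passed, higher by 0.55 ± 0.25 (adjusted p = 0.0493, 14.1% of all genes were higher), and 16 of 24 alternatives lost it, including the removal of any 1 of 9 arrays. Cdc20 read 1529 and 633 in BALB/c and BL6 without retinoid, and 2528 and 1834 with Ro. With LPS it was at background in both on the probe set used. Without LPS, no member passed (2.69% of all genes did). An unadjusted p under 0.05 in limma was reached by 21 members, beside 2171 of the 12429 genes. All 39 changes lay above the median gene, from 0.28 to 1.28 with a median of 0.77. The members moved together across the arrays without LPS, so these are not 39 separate observations. Top2a had the smallest p, at 1328 and 448 without retinoid against 2211 and 2028 with Ro (1.27 ± 0.39, adjusted p = 0.0890). Cdc20 followed (0.95 ± 0.32, adjusted p = 0.110). After quantile normalization 1 member passed (3.89% of all genes did) and after median scaling 2.

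Both strains showed higher values with Ro before LPS, but not by the same amount. Relative to all genes, the median member was 0.49 higher with Ro in BALB/c (37 of 39 above the median gene) and 1.11 higher in BL6 (39 of 39). In BL6 the comparison starts from low values: the mean of log2(signal + 16) over the members was 8.05 on the BL6 array without retinoid and 9.37 on the one with Ro, against 9.16 and 9.68 in BALB/c. Whether the strains differ in this was not tested. Summed signals of early myeloid precursor markers (Mpo, Elane, Prtn3, Ctsg, Kit, Cd34, Ms4a3 and Flt3) were 436 on the same BL6 array without retinoid and 3234 on the one with Ro, against 1952 and 2027 in BALB/c. With RA and no LPS these sums were 1231 in BL6 and 8103 in BALB/c. Mast cell and basophil sums went from 310 to 2562 with Ro in BL6, and from 266 to 321 in BALB/c. Granulocyte sums went from 17027 to 34798 in BL6, and from 24464 to 12139 in BALB/c. The part of these cells in the result was not tested.

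With LPS, 3 members were called lower with Ro, where 5.59% of all genes were lower and 16% higher. Mki67 fell by 2.49 ± 0.46 (adjusted p = 0.00851) and Incenp fell by 1.30 ± 0.28 (adjusted p = 0.0260). The call on Kif23 (adjusted p = 0.0338) rests on values at background. Incenp read 654 in BALB/c and 791 in BL6 with LPS alone, and 315 and 383 with LPS and Ro, so that both strains lay lower with Ro. Kif23 read 29.9 and 33.9 with LPS alone and 6.29 and 3.82 with Ro, so no size is given. The Kif23 call was lost with its other probe set (adjusted p = 0.941) and with 64 added in place of 16 (0.268). Without the BALB/c array with Ro and LPS, none of these 3 passed (adjusted p = 0.0754 for Mki67, 0.146 for Kif23 and 0.164 for Incenp). Without the BL6 control array with LPS they did not pass either (0.0647, 0.247 and 0.215). The other 36 members lay between -1.32 and 0.90, and the median of the 39 was -0.38.

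**Figure D4:**
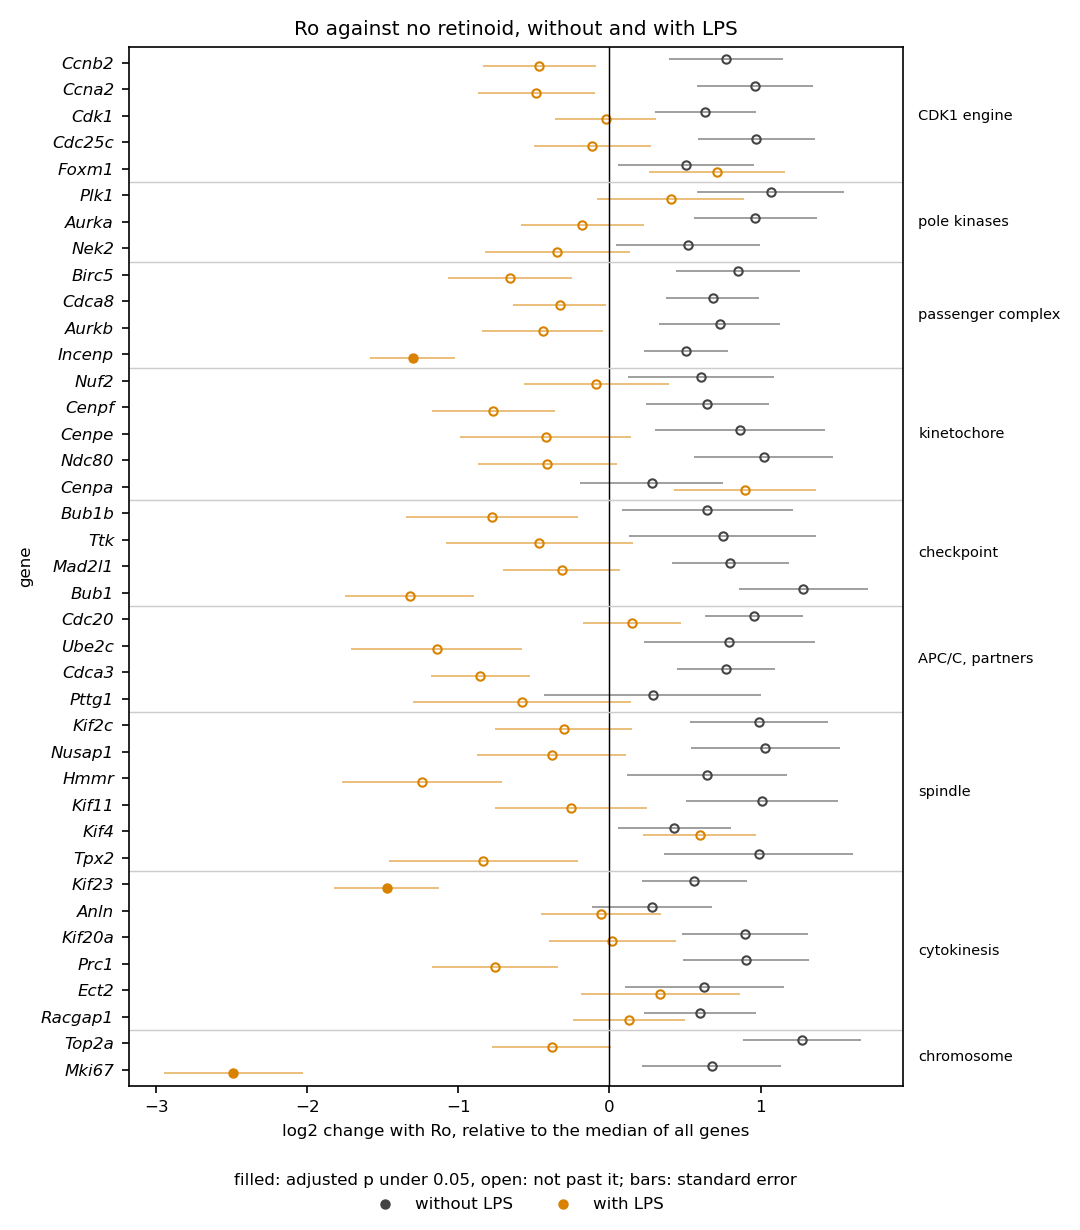
Log2 change with Ro of each mitosis gene without LPS and with LPS (2 arrays against 2), relative to the median of all genes, with standard errors. All 39 points without LPS lie right of 0 and are open, since none passed, and the 3 filled points are Mki67, Kif23 and Incenp with LPS.

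RA changed no member at the threshold: 0 over both LPS states (0% of all genes called), 0 without LPS (0.145%) and 0 with LPS (0%) by limma. An unadjusted p under 0.05 was reached by 0, 0 and 2 members, beside 1024, 912 and 1146 of the 12429 genes. The smallest p over both states belonged to Cenpa (-0.79 ± 0.42, adjusted p = 0.664) and Foxm1 (0.46 ± 0.32, adjusted p = 0.721). Cdk1 (0.57 ± 0.33, adjusted p = 0.851) and Bub1 (0.53 ± 0.43, adjusted p = 0.951) came first without LPS, and Cenpa (-1.43 ± 0.47, adjusted p = 0.439) and Bub1 (-1.16 ± 0.43, adjusted p = 0.483) with LPS. Cdk1 read 1202 and 724 without retinoid and 1800 and 1029.6 with RA, in BALB/c and BL6. Without LPS the median member was 0.24 above the median gene.

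RA and Ro were set against each other at the doses used, which differ, so a dose and a compound effect cannot be told apart. Over both LPS states Cenpa passed, lower with RA (-1.37 ± 0.42, adjusted p = 0.0214), as were 14.4% of all genes. It did not pass without the BALB/c array with Ro and LPS (0.0658) or its BL6 counterpart (0.0786). Without LPS no member passed (7.7% of all genes did). The smallest p belonged to Cdc20 (-0.76 ± 0.32, adjusted p = 0.111) and Kif20a (-0.92 ± 0.42, adjusted p = 0.149), and Kif20a read 362 and 113 with RA against 585 and 370.1 with Ro. With LPS, Mki67 was higher with RA by 3.26 ± 0.46 (adjusted p = 0.0015) and Cenpa was lower with RA (-2.33 ± 0.47, adjusted p = 0.00467), where 5.1% of all genes were higher and 11% lower. Both kept the threshold in all 21 alternatives run. Cenpa read 651 in BALB/c and 144 in BL6 with RA and LPS, 695 and 965 with LPS alone, and 2341 and 1511 with Ro and LPS. Between RA and Ro with LPS, Mki67 and Cenpa thus went in opposite directions.

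BALB/c and BL6 were compared over the 6 conditions (6 arrays against 6). In BALB/c 4 members were higher and none lower, where 11.5% of all genes were higher: Bub1 by 1.05 ± 0.37 (adjusted p = 0.0490), Ccna2 by 0.74 ± 0.26 (0.0413), Aurkb by 0.67 ± 0.25 (0.0474) and Cdc20 by 0.59 ± 0.20 (0.0324). Each lost the threshold in 9 to 16 of 21 alternatives. None of the 4 passed without any 1 of the BALB/c arrays other than that with Ro and LPS, or without the BL6 array with no retinoid or with RA, both without LPS. Leaving out 1 array at a time gave 0 to 9 such members, with 9 when the BALB/c array with Ro and LPS was left out. The strain difference was not even across conditions. Without retinoid and LPS, 36 of 39 members lay further towards BALB/c than the median gene, by a median of 0.91, and with RA 37 did, by 0.92. With Ro the median was 0.26. With LPS it was -0.41 without retinoid, 0.42 with RA and -0.01 with Ro. Ccna2 read 896 and 315 in BALB/c and BL6 without retinoid, 1178 and 396 with RA, and 1442 and 964 with Ro, and Aurkb read 425 and 154, 530.3 and 167, and 643 and 375.

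Pttg1 responded to LPS in opposite directions in the strains. The 6 arrays without LPS lay together at 3083 to 4675. With LPS the BALB/c arrays read 1739 without retinoid, 939 with RA and 1144 with Ro, all below that range. The BL6 arrays read 7198, 6132 and 7260, all above it. Within BALB/c (3 arrays against 3) Pttg1 fell by 1.14 ± 0.25 relative to all genes (adjusted p = 0.00272), and within BL6 it rose by 1.30 ± 0.17 (adjusted p = 0.00428). The interaction of strain with LPS was -2.41 ± 0.29 (adjusted p = 0.0136), the 1 member to pass where 0.113% of all genes did. It did not pass after median scaling (0.0937), without the BALB/c array with RA (0.0625) or with RA and LPS (0.0787), or without the BL6 array with RA (0.072) or with RA and LPS (0.0888). At the deposited scaling, the probe set used differed with LPS by -1.67 in BALB/c and 0.99 in BL6, and the 2 other Pttg1 probe sets by -1.60 and -1.85 in BALB/c and by 1.47 and 0.76 in BL6. The probe set used can also bind transcripts of related sequence.

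More than 1 probe set was annotated to 27 members, 52 further ones in all. Of these 40 passed the filter, and 38 of the 40 were lower with LPS at the deposited scaling. The 2 exceptions belonged to Cdca3, whose probe set stayed below background, and to Cenpa. Some of the 40 passed the filter through the arrays without LPS alone, so that they had to fall if they differed. Examples with LPS are 1 of Kif23 at 0.21 to 2.79 and 1 of Foxm1 at 1.30 to 2.93. These were not counted apart. Of the 52, 13 never rose above background. With the other probe set in its place, the fall was not called for Aurka (adjusted p = 0.411), Cdca3 (0.820), Anln (0.111) and Cenpa (0.876), and of these only that of Cenpa lay above background on any array. Of the probe sets used, 5 are of the kind that can bind unrelated transcripts and 4 of the kind shared within a family.

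Across the 6 arrays without LPS the members moved together, with a median correlation of 0.933 over 741 pairs of genes. Cenpa followed the mean of the others least (r = 0.545), then Cdca3 (0.769). Across the 6 LPS arrays the median pairwise correlation was 0.127. Those arrays share conditions and strain, and most members lie near background there, so these are descriptions only.

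Other genes of the cell cycle were read from fixed lists on the same LPS comparison. The counts stand beside the 47.9% of all genes that were lower and the 11% that were higher. Some listed genes passed the filter through the arrays without LPS alone, so that they had to fall if they differed. Examples with LPS are the mitosis gene Depdc1b at 0.54 to 11.2 and the replication gene Cdc6 at 3.96 to 24.9. Such genes were not counted apart here. Of 54 further mitosis genes 49 were lower and 1 higher, with a median of -1.87. Pbk, Cep55, Knstrn and Spc24 had changes of -3.15 to -3.01, and Cit, the citron kinase of cytokinesis, was higher by 0.96 ± 0.20 (adjusted p = 0.0304). Of 34 DNA replication genes 31 were lower and none higher (median -1.64), among them Rrm2, a subunit of ribonucleotide reductase (-4.04 ± 0.28), thymidine kinase Tk1 (-3.27 ± 0.29), the helicase subunit Mcm5 (-2.96 ± 0.32) and the polymerase subunit Pola1 (-2.53 ± 0.24). Of 11 genes of the G1 phase 8 were lower (47.9% of all genes were) and 1 higher (median -0.91). Ccnd1, cyclin D1, fell by 2.36 ± 0.54 and Myc by 2.76 ± 0.37, while Ccnd2, cyclin D2, was 2.34 ± 0.32 higher, from a median of 2653 without LPS to 8532 with it.

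Among 15 CDK inhibitors and antiproliferative genes, 6 were higher (11% of all genes were) and 4 lower (47.9%), with a median of 0.80. Gadd45b (3.32 ± 0.29), Gadd45g (2.76 ± 0.32), Cdkn2b (1.78 ± 0.31) and Ccng2 (1.42 ± 0.18) were highest, followed by Cdkn1b, or p27 (1.24 ± 0.20), and Cdkn1a, or p21 (1.06 ± 0.12). Cdkn2c, or p18, fell by 2.00 ± 0.18. Of 19 genes of the E2F, RB and DREAM or MuvB complexes 13 were lower and 1 higher (median -0.38). E2f2 (-2.69 ± 0.20), E2f8 (-2.52 ± 0.35) and E2f7 (-1.76 ± 0.23) fell, Mybl2, which encodes B-MYB, fell by 0.69 ± 0.29, and E2f5 rose by 2.34 ± 0.32. With Ro averaged over LPS, 15 of 34 replication genes were higher and none lower, beside 14.1% of all genes higher and 4.36% lower. Prim1, a primase subunit (1.27 ± 0.31), and Dut, the dUTPase (1.17 ± 0.31), were among the 15. Of the 54 further mitosis genes 8 were higher, a share near that of all genes, and 1 was lower.

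**Figure D5:**
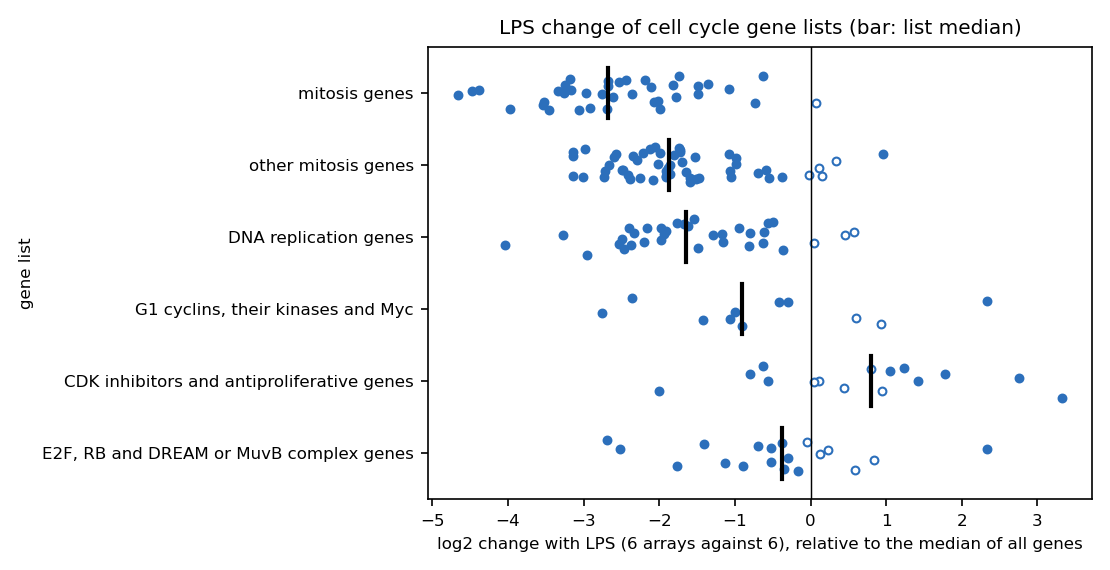
Log2 change with LPS (6 arrays against 6) of each tested gene in 6 cell cycle lists, relative to the median of all genes. Filled points passed the adjusted threshold and bars mark list medians, from -2.68 for the mitosis genes to 0.80 for the CDK inhibitors.

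Markers of other marrow cells moved with LPS as well. The counts of called markers stand beside 47.9% of all genes lower and 11% higher. Of 8 granulocyte markers 7 were lower and 1, Lcn2, higher, with summed signals of 12139 to 63523 without LPS and 3908 to 17712 with it. Of 8 early precursor markers 7 were lower, with sums of 436 to 8103 against 151 to 543. B cell marker sums were 782 to 1691 against 55.7 to 185, without LPS mostly Ighm (739 to 1634), which ran from 6.09 to 60.1 with LPS, and with Cd79a at background throughout. Mast cell and basophil sums were 236 to 2562 against 105 to 582. Of 9 macrophage and monocyte markers 5 were lower and 2 higher. Their sums were 21787 to 39286 against 11728 to 36089, lowest in the Ro cultures. Of 10 dendritic cell markers 4 were lower (Itgax, Ciita, Cd209a and Clec10a) and 1, Ccr7, higher. Their sums, carried by Cd74, H2-Aa and H2-Ab1, were 37787 to 56424 against 32371 to 52665. The part of these cells in the fall of the mitosis genes was not tested.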

How the data were processed

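Gene expression was measured on 12 one-colour Affymetrix arrays. The authors deposited probe set intensities on a linear scale, made with MAS5 per the submitters' processing notes, whose version and target intensity are not given in the sources used here. Of 45101 probe sets, 34945 were annotated to a single gene. Intensities were analysed as log2(signal + 16). A probe set was kept if it exceeded its array's median on at least 2 of 12 arrays, and the kept probe set of highest mean stood for its gene. The fits used limma 3.58.1 (R 4.3.3) on all 12 arrays, with a moderated test whose prior follows intensity: retinoid, LPS and strain for averaged comparisons, the 6 conditions plus strain for single ones and retinoid interactions, and the first model plus strain by LPS. Strain is the replicate number of the labels, so the block pairs the cultures of a strain; the strain differences of any 2 conditions correlated at r = 0.304 to 0.699. Strain and any batch shared by cultures of the same number cannot be told apart. A p-value here reflects only how these arrays vary, which may be technical. The number of arrays limits precision.

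Per-gene values are given for the brightest and most changed member of each role, the 3 members least changed by LPS, and the called members of each other comparison or those of smallest p. The members, lists and rules were chosen with earlier results of these data known. On simulated data with 200 genes changed by a log2 of 2, the fits recovered 97.5% for LPS, 95% for Ro averaged and 79.5% for Ro without LPS. Of the simulated calls 3.94%, 7.32% and 5.36% were false, in that order. The simulated noise was independent between genes, with no strain effect and no shift of the median gene. The simulation thus does not show how the fits perform where genes move together, as here. Alternatives changed the scaling, the added constant, the filter, the probe set, the trend, the block and the arrays used. Promoter windows came from RefSeq (GRCm38.p6). Summaries were computed with pandas 2.3.3 and numpy 2.4.6 under Python 3.11.15, and plots drawn with matplotlib 3.10.9.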

Additional observations from a re-analysis of the deposited data

Results flagged for a closer look

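Among 78 groups of 6 arrays (39 members without and with LPS), 1 held a value far from the other 5: Cdk1 in the BL6 culture with Ro and LPS, at 283 where the other LPS arrays read 181 to 214. Chance gives such a value in about 1 of 20 groups.

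Pttg1 differed between the strains in its response to LPS, by -2.41 on the log2 scale in the interaction of strain with LPS. All 3 BALB/c pairs went down and all 3 BL6 pairs went up, with the mean change of BALB/c lying -2.66 from that of BL6 at the deposited scaling.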

How the results depend on the processing

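The fall of the mitosis genes with LPS stayed at 37 to 38 members when 1 array was left out, 36 under quantile normalization or median scaling, 34 with each gene's other probe set, 38 in BALB/c alone and 36 in BL6 alone, where Pttg1 was called higher. The direction of single genes reversed with the other probe set for Aurka (0.22), Cenpa (0.49) and Cdca3 (0.48), and in BL6 alone for Tpx2 (0.26). Pttg1, never called in the average, turned to -0.26 under quantile normalization, -0.0238 with 64 added, -0.16 without the filter, -1.14 in BALB/c alone and -0.17 to 0.31 with 1 array left out, below 0 whenever that was a BL6 array. Bub1 between strains turned to -0.37 with its other probe set.

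Counts in the retinoid and strain comparisons were less stable. For Ro averaged, 3 members passed under median scaling and 0 with 64 added, without the filter, with the other probe set, without the trend, without the replicate block and in either strain alone (0 to 3 with 1 array left out). For RA against Ro averaged, 0 passed under median scaling, with the other probe set and in either strain alone, and 2 in the model of 6 conditions (0 to 3 with 1 array left out). For strain, 2 passed under median scaling or without the trend, 0 with 64 added and 1 without the filter or with the other probe set (0 to 9 with 1 array left out). For Ro without LPS, 1 passed under quantile normalization (3.89% of all genes did) and 2 under median scaling. For Ro with LPS, 1 passed with the other probe set or without the replicate block (0 to 4 with 1 array left out). For RA against Ro, 1 passed without LPS under quantile normalization (8.77% of all genes did). With LPS 4 passed under quantile normalization (16.7% of all genes), median scaling or 1 added. For the interaction of Ro with LPS, 3 passed under quantile normalization (1.42% of all genes did), 4 under median scaling and 1 with 1 added (0 to 1 with 1 array left out). For that of strain with LPS, 0 passed under median scaling (0 to 1 with 1 array left out), and RA with LPS gave 0 to 1. The cause was not tested. The replicate block is the strain, which the labels give. In all, 306 counts stayed within 1.5 times the first value and 62 moved.

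Among all genes, the share of calls that were higher moved under quantile normalization from 76.4% to 53.4% for Ro, from 27.1% to 49.0% for RA against Ro, from 74.7% to 47.2% for BALB/c, from 74.1% to 55.2% for Ro with LPS, and from 17.6% to 42.9% for LPS without retinoid. With LPS 23 members lay at background, so the order of their falls depends on the added constant.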
